A study of Homo sapiens with 27 samples.

Results

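The apolipoproteins analysed here were 10 genes chosen by name, APOD, APOE, APOC1, APOA1, APOB, APOH, APOM, APOO, APOOL and CLU, out of 60619 genes in the count table. They were followed in 27 RNA-Seq libraries of MM134 (MDA-MB-134VI) and SUM44, established estrogen receptor-positive cell lines of invasive lobular breast carcinoma. Parental MM134 cells were compared with 4 long-term estrogen-deprived (LTED) variants (LTED-A, LTED-B, LTED-D, LTED-E), and SUM44F parental cells with SUM44 LTED-A and LTED-B. SUM44F had been obtained by growing SUM44PE, the original parental line, in another serum-containing medium, and SUM44PE completed the 9 groups of 3 libraries each.

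All LTED variants were kept for months in medium with charcoal-stripped serum and no phenol red, whereas the parental cells were deprived of hormone for 3 days before collection, so that the parental groups too were hormone-deprived when RNA was taken. No engineered allele or added drug distinguished the groups. Each variant was derived independently and stands for a single deprived culture. The replicates were wells seeded in triplicate, and the p-values therefore measure the spread between wells, which may be technical. Levels are given as CPM (reads of a gene relative to the library total), scaled by the trimmed mean of M values (TMM) over all 9 groups and with the SD over libraries. A gene was called changed at an adjusted p under 0.001 with a fold change over 1.5, the thresholds of the study, in edgeR's quasi-likelihood test with Benjamini-Hochberg adjustment over all genes tested. All adjusted p-values come from that test, an error after a log2 fold change is its SE, and "rose" and "fell" are used of called changes. Library totals ran from 28583554 to 134882175 counts, with a median of 44018412. SUM44 LTED-A replicates 2 and 3 differed by less than sampling noise (chi-square per degree of freedom 0.31, against 2.35 to 58.1 in the other 26 replicate pairs) and were counted as 1 sample, which left n = 2 in that group.

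Apolipoproteins are proteins that bind lipid. APOB forms the backbone of very-low-density and low-density lipoproteins and APOA1 that of high-density lipoprotein, while APOE and APOC1 exchange between particles and govern their uptake by receptors and their remodelling by lipases. APOD and APOM are lipocalins, small carriers of hydrophobic ligands, and APOD is abundant in breast cyst fluid. APOH binds anionic phospholipid, and CLU (clusterin, also called apolipoprotein J) is a secreted chaperone. APOO and APOOL share the name, but reside in the inner mitochondrial membrane as subunits of MICOS, the complex that shapes the cristae. Most plasma apolipoproteins are made in the liver and intestine.

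A single library stood apart. The summed level of 5 fibroblast markers was 327 CPM in SUM44F replicate 1, and 8.55 and 7.34 CPM in SUM44F replicates 2 and 3. LUM, which encodes the matrix proteoglycan lumican, was at 57.2 CPM in replicate 1 and at or under 0.01 CPM in replicates 2 and 3. COL3A1, a fibrillar collagen, was at 134.6 CPM in replicate 1, against 0.70 and 0.47 CPM. In every other group the 5 markers summed to at most 33.6 CPM. Smaller LUM signals were found in MM134 parental replicate 3 (2.79 CPM) and MM134 LTED-D replicate 2 (2.27 CPM). All 7 luminal epithelial markers were at 1 CPM or more in every group and summed to 4191 to 7413 CPM. Values without SUM44F replicate 1 are given wherever it altered a result.

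CLU was the most abundant member. Per kilobase of exon and averaged over the 9 groups, its level was 141 CPM, followed by APOD at 71.7 CPM, APOO at 6.68 CPM, APOOL at 4.98 CPM and APOM at 1.25 CPM. The remaining members lay lower, with APOE at 0.38, APOC1 at 0.36, APOA1 at 0.22, APOH at 0.081 and APOB at 0.014 CPM per kilobase. CLU ranked from 45th in SUM44F to 1716th in MM134 LTED-E among 56434 genes by level per kilobase, and took 0.303% of all counts in SUM44F. APOD ranked 90th in SUM44PE and 27169th in MM134 parental cells. In bulk libraries, fewer cells with a transcript and less transcript per cell cannot be told apart.

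In MM134 cells CLU, the secreted chaperone, was at 248.8, 251.4 and 253.3 CPM in the parental libraries. It was at 994, 1048 and 1119.7 CPM in LTED-A, and at 641, 637 and 657 CPM in LTED-D. LTED-B held 325, 339 and 335 CPM, and LTED-E held the lowest levels of the series, at 152, 153 and 151 CPM. No library of one MM134 group overlapped those of another for this gene. CLU rose 4.18-fold in LTED-A (log2 fold change 2.06 ± 0.03, adjusted p = 2.23e-19) and 2.59-fold in LTED-D (1.37 ± 0.03, adjusted p = 1.08e-16). It fell in LTED-E, where it was 1.64-fold lower than in parental cells (-0.71 ± 0.03, adjusted p = 1.22e-12). In LTED-B the difference of 1.33-fold passed the p-value but not the fold threshold (0.41 ± 0.03, adjusted p = 3.99e-09). Immune markers summed to 11.5 to 12.6 CPM in LTED-A and to at most 5.33 CPM in the other MM134 groups, carried by LYZ at 9.23 to 10.3 CPM, with CD3E and FCGR3A below detection at 3 counts or fewer, and their part in the CLU level was not tested.

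In SUM44 cells CLU was at 3118, 3024 and 2301 CPM in SUM44F. It was at 664 and 732 CPM in LTED-A, and at 509, 530.4 and 546 CPM in LTED-B. Every LTED library lay below every SUM44F library. CLU was 4.03-fold lower in LTED-A (log2 fold change -2.01 ± 0.16, adjusted p = 4.20e-06) and 5.33-fold lower in LTED-B (-2.41 ± 0.14, adjusted p = 3.00e-07). Without SUM44F replicate 1 both calls held, at log2 fold changes of -1.93 and -2.33. Between the SUM44 variants CLU did not pass the test (-0.40 ± 0.15, adjusted p = 0.0739).

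**Figure D1:**
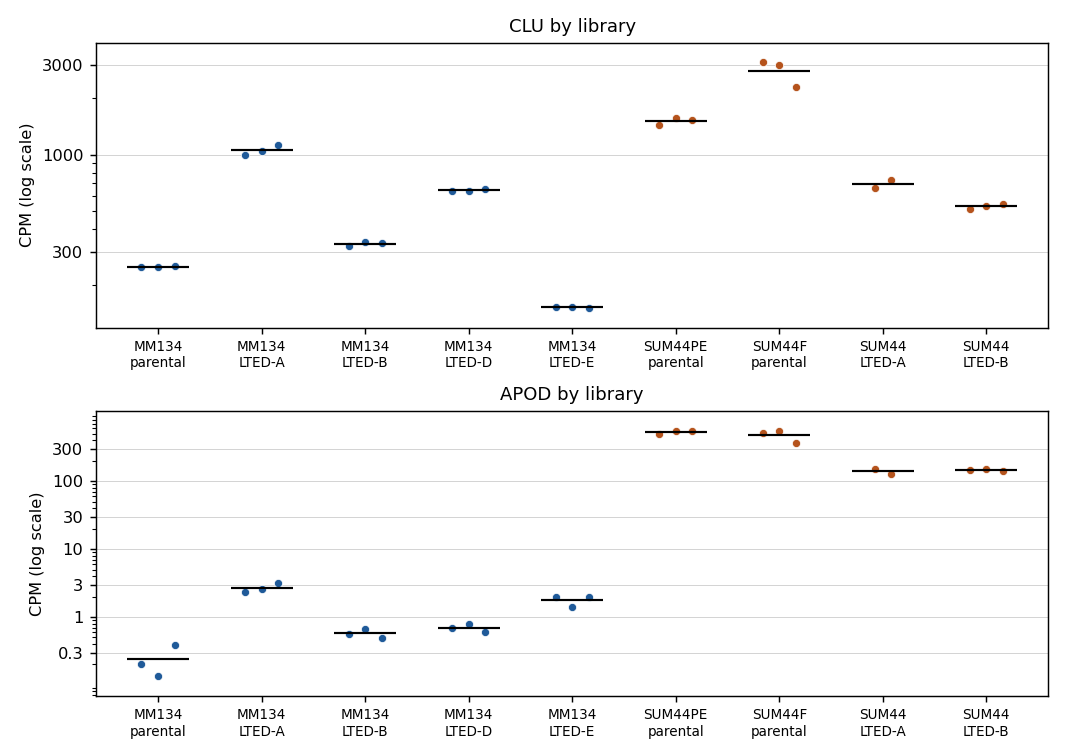
Level of CLU (upper panel) and APOD (lower panel) in CPM on log scales, in 9 groups of MM134 (blue) and SUM44 (orange) cells. Points are libraries and bars are group means, with 2 points for SUM44 LTED-A. CLU ran from 151 CPM in MM134 LTED-E to 3118 CPM in SUM44F, while APOD was at 128 CPM or more in every SUM44 library and at 3.22 CPM or less in every MM134 library.

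APOD, the lipocalin of breast cyst fluid, separated the 2 cell lines. In SUM44F it was at 512, 553 and 361 CPM and in SUM44PE at 504, 547 and 557 CPM. MM134 parental libraries held 0.20, 0.13 and 0.39 CPM, from 7, 5 and 12 counts. APOD was thus 2034-fold lower in MM134 parental cells than in SUM44F (log2 fold change -10.99 ± 0.21, adjusted p = 2.78e-21).

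In the SUM44 variants APOD was at 150.2 and 128 CPM in LTED-A and at 147, 152 and 144 CPM in LTED-B. The variants overlapped each other and lay below all parental libraries of the line. APOD fell 3.41-fold in LTED-A (log2 fold change -1.77 ± 0.17, adjusted p = 1.42e-05) and 3.22-fold in LTED-B (-1.69 ± 0.14, adjusted p = 5.32e-06). Without SUM44F replicate 1 the log2 fold changes were -1.71 and -1.63, both still called.

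In MM134 cells the same gene moved from a trace level in the opposite direction. APOD was at 2.33, 2.56 and 3.22 CPM in LTED-A and at 2.001, 1.398 and 1.963 CPM in LTED-E. LTED-D held 0.68, 0.79 and 0.60 CPM and LTED-B held 0.56, 0.66 and 0.50 CPM, overlapping each other and lying above the parental libraries. APOD rose 11.3-fold in LTED-A (log2 fold change 3.50 ± 0.26, adjusted p = 1.26e-09), 7.60-fold in LTED-E (2.93 ± 0.28, adjusted p = 3.93e-08) and 2.93-fold in LTED-D (1.55 ± 0.33, adjusted p = 0.000554). In LTED-B the value of 1.28 ± 0.33 did not pass (adjusted p = 0.00328). Without MM134 parental replicate 3, which held the most APOD counts of its group and a LUM signal, LTED-B passed with a log2 fold change of 1.77 (adjusted p = 0.000626). The LTED-D call was lost without MM134 parental replicate 1 or 2, or without any LTED-D library (highest adjusted p = 0.00594). Even in LTED-A, APOD remained below 4 CPM, against 128 CPM or more in SUM44 LTED cells.

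The difference between the cell lines was tested directly, as the mean LTED change in MM134 minus the mean LTED change in SUM44. 2 of the 9 members tested were called, against 20.9% of all genes tested. These were APOD, at 4.03 ± 0.33 on the log2 scale (adjusted p = 5.80e-10), and CLU, at 2.98 ± 0.09 (adjusted p = 2.46e-17). Without SUM44F replicate 1 the values were 3.97 and 2.895. For CLU this mean over MM134 variants pools 3 higher variants with LTED-E, in which CLU fell. APOO had a difference of -0.53 ± 0.09 (adjusted p = 3.42e-05), which was under the fold threshold, and was called without SUM44F replicate 1, at -0.60 (adjusted p = 5.23e-05), and without SUM44 LTED-A replicate 1, at -0.64 (adjusted p = 6.94e-07).

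**Figure D2:**
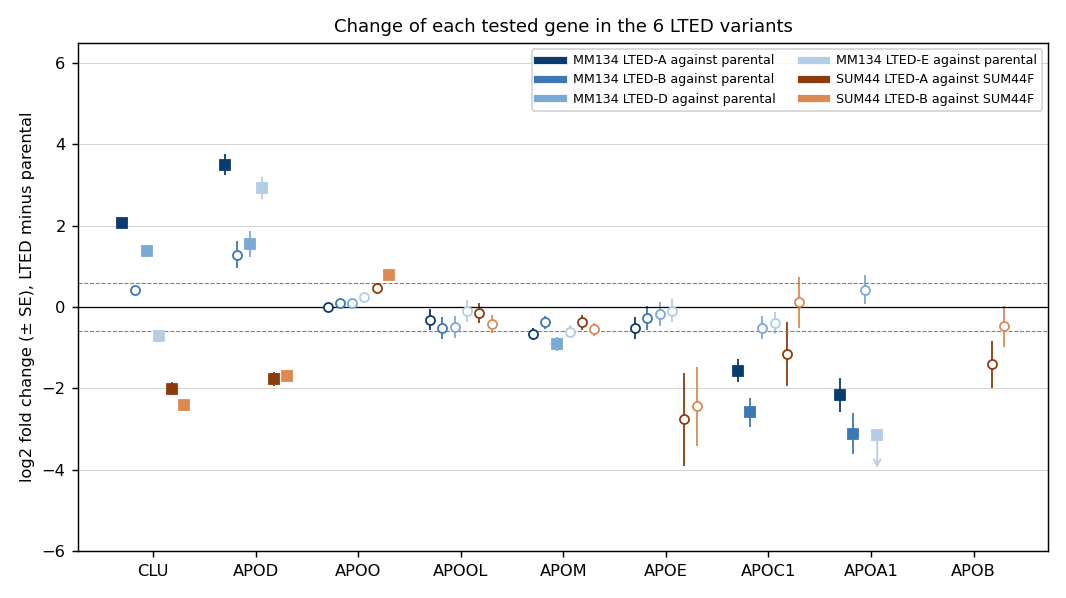
Log2 fold change (± SE) of each tested member in the 6 LTED variants against parental cells, in blue for MM134 and orange for SUM44. Filled squares were called, open circles were not, and dashed lines mark 1.5-fold. The arrow on APOA1 in MM134 LTED-E, which had 0 to 2 counts, starts at the decrease set by the detection limit of 3 counts (8.84-fold). CLU and APOD fell in both SUM44 variants, whereas in MM134 APOD lay above 0 in all 4 variants and CLU in 3 of 4.

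Counted over the members, the MM134 comparisons had 8 of the 10 genes above the filter on low counts, with APOB and APOH below it. In LTED-A 4 of 8 were called (CLU and APOD higher, APOC1 and APOA1 lower), against 20.3% of all genes tested. In LTED-B 2 of 8 were called (APOC1 and APOA1, both lower), against 15.9%. In LTED-D 3 of 8 were called (CLU and APOD higher, APOM lower), against 17.6%. In LTED-E 3 of 8 were called (APOD higher, CLU and APOA1 lower), against 19%. The 4 comparisons share the same parental libraries. In the test for any difference among the 4 variants, 4 of 8 members were called (CLU, APOD, APOC1 and APOA1), against 19.6%. In that test the widest log2 distance between 2 variants was 2.78 for CLU (adjusted p = 6.39e-20) and 2.21 for APOD (adjusted p = 4.89e-08). It was 2.19 for APOC1 (adjusted p = 8.48e-05). For APOA1 the fitted distance was larger than for CLU, between LTED-D and LTED-E (adjusted p = 8.25e-07). Its size is uncertain and is not given, because LTED-E was below detection.

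The SUM44 comparisons also tested 8 members, with APOA1 and APOH below the filter, and share the SUM44F libraries. In LTED-A 2 of 8 were called (CLU and APOD, lower), against 13.7% of all genes tested. In LTED-B 3 of 8 were called (CLU and APOD lower, APOO higher), against 17.3%. Between LTED-B and LTED-A none of 8 was called by edgeR, against 7.42% of all genes, and 2 members, CLU and APOO, were under an unadjusted p of 0.05. DESeq2 also called none there. Between SUM44PE and SUM44F 1 of 9 was called, against 5.57%. This was CLU, at 1440 to 1570.5 CPM in SUM44PE and 1.87-fold lower than in SUM44F (log2 fold change -0.90 ± 0.12, adjusted p = 0.00011), a call lost without SUM44PE replicate 1 or 3 (adjusted p of 0.0011 and 0.0012). Between MM134 parental cells and SUM44F 3 of 9 were called, against 38.1%. Beside APOD these were CLU, 11.3-fold lower in MM134 (-3.50 ± 0.08, adjusted p = 4.80e-20), and APOA1, higher in MM134 (2.94 ± 0.50, adjusted p = 2.31e-05).

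APOC1, an inhibitor of lipoprotein uptake and of lipid transfer, was present at 44 counts or fewer. In MM134 parental libraries it had 44, 35 and 22 counts, or 1.26, 0.94 and 0.71 CPM. LTED-A had 31, 18 and 19 counts (0.31, 0.33 and 0.35 CPM) in deeper libraries, and LTED-B had 6, 6 and 8 counts (0.14, 0.14 and 0.20 CPM). Neither group overlapped the parental cells. APOC1 was 2.96-fold lower in LTED-A (log2 fold change -1.56 ± 0.29, adjusted p = 0.000148) and 6.03-fold lower in LTED-B (-2.59 ± 0.36, adjusted p = 6.14e-06). In LTED-D, at 0.97, 0.79 and 0.35 CPM, and in LTED-E, at 0.69, 0.80 and 0.70 CPM, it did not pass (adjusted p of 0.157 and 0.245). Without MM134 parental replicate 1 the LTED-A call was lost (-1.34, adjusted p = 0.00211), as it was without LTED-A replicate 1 (-1.50, adjusted p = 0.00143).

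In SUM44 groups APOC1 had 3 to 39 counts and passed in no comparison of that line. SUM44F replicate 1, the library with fibroblast markers, held 29 counts of APOC1 against 11 and 8 in replicates 2 and 3. Without it, APOC1 was called higher in MM134 parental cells than in SUM44F, at a log2 fold change of 2.77 (adjusted p = 8.56e-06, against 0.00209 with it). APOC1P1, a near-identical pseudogene, had 15 to 84 counts, and reads may have been divided between the 2 copies, so that APOC1 levels are uncertain.

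APOA1, the structural protein of high-density lipoprotein, had 23, 17 and 19 counts in MM134 parental libraries, a mean of 0.58 ± 0.10 CPM. In LTED-D it had 26, 23 and 35 counts (0.77 ± 0.11 CPM) and was not called (log2 fold change 0.42 ± 0.35, adjusted p = 0.345). In LTED-A it had 17, 6 and 4 counts and in LTED-B 1, 1 and 6 counts. APOA1 fell in both (-2.16 ± 0.41, adjusted p = 0.000188, and -3.11 ± 0.51, adjusted p = 5.06e-05). LTED-E had 2, 0 and 2 counts, at or under the detection limit of 3 counts per library, and APOA1 was there at least 8.84-fold lower than in parental cells (adjusted p = 5.92e-06). The LTED-A call was lost without MM134 parental replicate 1 (adjusted p = 0.00157) and without LTED-A replicate 2 or 3. In SUM44, APOA1 had 8, 17 and 31 counts in SUM44PE, 6, 3 and 4 in SUM44F, 0 and 2 in LTED-A, and 4, 3 and 13 in LTED-B. An antisense transcript of the locus, APOA1-AS, had 0 to 11 counts, and the strand setting of the counting is not given in the sources used here.

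**Figure D3:**
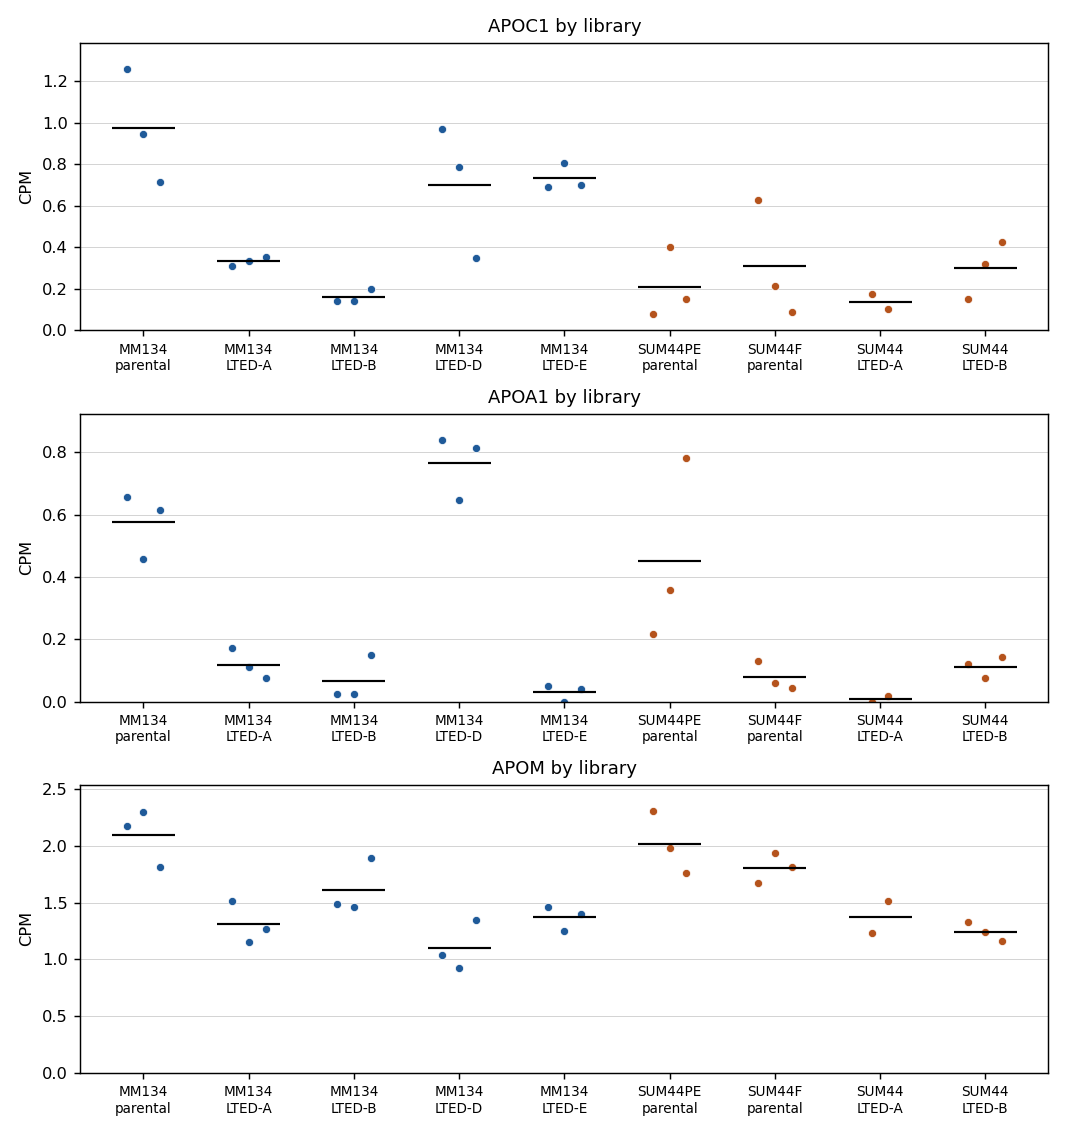
Levels of APOC1, APOA1 and APOM in CPM by library, in MM134 (blue) and SUM44 (orange) groups, with bars at group means. APOC1 was lowest among MM134 groups in LTED-B (0.16 CPM), APOA1 was near 0 in MM134 LTED-E and SUM44 LTED-A, and APOM stayed between 0.93 and 2.31 CPM in all libraries.

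APOE, the ligand by which remnant particles are taken up by cells, lay between 0.33 and 1.00 CPM in all libraries but one. That library was SUM44F replicate 1, with 326 counts (7.07 CPM) against 25 and 31 counts (0.49 and 0.35 CPM) in SUM44F replicates 2 and 3. APOE was called in no comparison. With no filter on low counts it was called between SUM44PE and SUM44F (-2.39, adjusted p = 0.000932), a value that was 0.23 without SUM44F replicate 1 in the filtered fit. The fitted log2 fold changes in SUM44 LTED-A and LTED-B were -2.76 ± 1.14 and -2.44 ± 0.97 (adjusted p of 0.0863 and 0.0632), and became -0.11 and 0.20 without that library (adjusted p of 0.845 and 0.631). In MM134 variants the values ran from -0.52 to -0.09 (lowest adjusted p = 0.138). The 5 fibroblast markers were high in the same library, as the plot of APOE beside them shows, and immune markers summed to 11.7 CPM there against 3.79 and 4.45 CPM. Of the immune markers the macrophage antigen CD14 was at 1.82 CPM, against 0.06 and 0.04 CPM. Their part in the APOE count was not tested. Within the chromosome 19 locus, APOE and APOC1 both overlap ENSG00000280087, an unnamed gene on the same strand with 107 to 542 counts, and reads of the locus may have been divided among them.

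**Figure D4:**
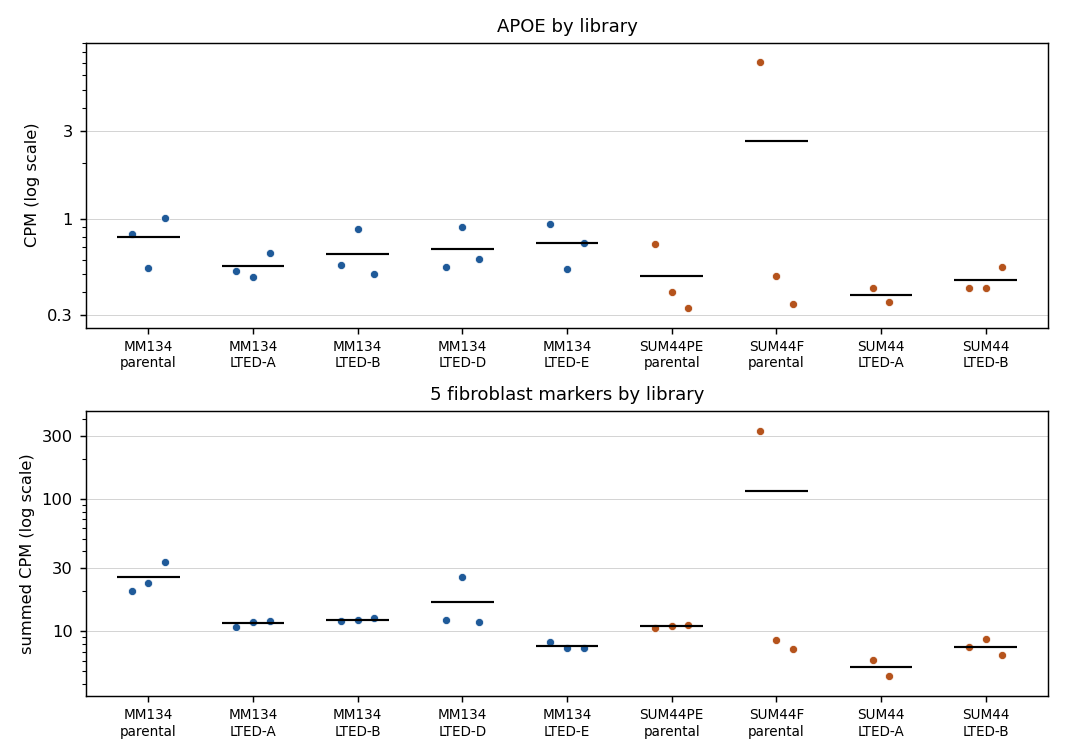
Level of APOE and summed level of 5 fibroblast markers (COL1A1, COL3A1, PDGFRB, DCN and LUM) in CPM on log scales, by library and group, MM134 in blue and SUM44 in orange. SUM44F replicate 1 lies above all others in both panels, at 7.07 CPM for APOE and 327 CPM for the markers.

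APOB and APOH were at trace levels. APOB, the backbone of low-density lipoprotein, had 1 to 62 counts, the most in SUM44PE (16, 24 and 62 counts, against 6, 13 and 28 counts in SUM44F), and was called in no comparison in which it could be tested. APOH, which binds anionic phospholipid, had 1 to 13 counts per library and was tested in none. Of 7 hepatocyte markers, AHSG was below detection in every group, and FGA and FGB in all but SUM44F. The 7 markers nonetheless summed to 3.63 to 3.75 CPM in MM134 parental cells, 131 to 136 CPM in MM134 LTED-D and 176 to 360 CPM in SUM44 groups, carried by ALB and SERPINA1. ALB and SERPINA1 are secreted plasma proteins. ALB was at 32.4 to 37.7 CPM in SUM44F, 263 to 331 CPM in SUM44 LTED-A and 323 to 337 CPM in LTED-B, while SERPINA1 was at 143 to 201, 5.37 to 6.08 and 14.8 to 16.3 CPM. Of 4 adipocyte markers FABP4 was below detection in every group, and all 4 summed to 1.51 to 8.59 CPM. The part of these markers in the member values was not tested.

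APOM, the lipocalin that carries sphingosine 1-phosphate on high-density lipoprotein, had its highest levels in parental cells of both lines. It was at 2.17, 2.29 and 1.81 CPM in MM134 parental libraries and at 1.03, 0.93 and 1.35 CPM in LTED-D. APOM fell 1.87-fold in LTED-D (log2 fold change -0.90 ± 0.17, adjusted p = 0.000194), a call lost without MM134 parental replicate 1 or 2 or LTED-D replicate 1 or 2. LTED-A, at 1.51, 1.15 and 1.26 CPM, missed the threshold (-0.67 ± 0.16, adjusted p = 0.00127). It passed without LTED-A replicate 1, LTED-B replicate 3 or LTED-D replicate 3 (adjusted p of 0.000878, 0.000827 and 0.000884). LTED-E, at 1.46, 1.25 and 1.40 CPM, also missed the threshold (-0.61 ± 0.16, adjusted p = 0.00379) and passed under no alternative (lowest adjusted p = 0.0027). LTED-B overlapped the parental cells, at 1.49, 1.46 and 1.89 CPM (-0.38 ± 0.16, adjusted p = 0.0604). In SUM44 the libraries held 1.67, 1.93 and 1.82 CPM in SUM44F, 1.24 and 1.52 CPM in LTED-A and 1.33, 1.24 and 1.16 CPM in LTED-B. Neither variant passed (-0.38 ± 0.18, adjusted p = 0.137, and -0.55 ± 0.17, adjusted p = 0.0199). All 6 variants had negative values, and 1 was called. APOM overlaps BAG6 on the other strand, which had 4967 to 23679 counts, so that the source of part of its 32 to 173 counts is uncertain.

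APOO and APOOL were the mitochondrial members. For APOO and APOOL the 250 bases upstream of the annotated start are shown (RefSeq, GRCh38.p14), because the members of this pair belong to one complex and only APOO was called; capitals mark CG dinucleotides. The APOO window is chrX:23907939-23908188 on the minus strand and the APOOL window chrX:85003627-85003876 on the plus strand, both outside the transcripts in GENCODE.
APOO: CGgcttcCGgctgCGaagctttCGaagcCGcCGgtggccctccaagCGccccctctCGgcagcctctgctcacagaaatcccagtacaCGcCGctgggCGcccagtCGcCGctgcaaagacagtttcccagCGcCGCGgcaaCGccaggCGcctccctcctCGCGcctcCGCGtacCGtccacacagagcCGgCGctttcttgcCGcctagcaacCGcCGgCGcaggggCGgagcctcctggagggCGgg
APOOL: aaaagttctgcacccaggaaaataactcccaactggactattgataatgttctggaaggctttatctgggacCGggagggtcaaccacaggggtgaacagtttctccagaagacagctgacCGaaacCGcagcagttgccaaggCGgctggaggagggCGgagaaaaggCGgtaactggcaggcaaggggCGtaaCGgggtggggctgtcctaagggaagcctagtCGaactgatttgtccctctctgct
The APOO window held 31 CG dinucleotides with a GC content of 71.6%, and the APOOL window 9 with 54.8%, against a median of 11 CG dinucleotides over 35116 promoters. Promoters of 6 members (8 starts, from 250 bases before to 50 after the start) were searched on both strands. These members were APOM, APOH, APOE, APOC1, APOO and APOOL. CLU, APOD, APOA1 and APOB had no entry in the promoter source and were not searched. The nuclear receptor element AGGTCA is held by 13.8% of all promoters of that length. The E-box CACGTG is held by 7.26% and the sterol response element TCACNCCAC by 1.13%. The estrogen response element, searched as its palindrome with a spacer of 3 bases, is held by 0.057%. None of these 4 motifs was found in any of the 8 windows.

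APOO rose in SUM44 LTED-B only, among the 6 variants compared with their parental cells. It was at 13.1, 12.7 and 11.1 CPM in SUM44F, at 15.1 and 18.7 CPM in LTED-A and at 22.0, 20.2 and 21.6 CPM in LTED-B. No LTED library overlapped SUM44F. The increase was 1.73-fold in LTED-B (log2 fold change 0.79 ± 0.11, adjusted p = 0.000132) and 1.38-fold in LTED-A, which did not pass (0.46 ± 0.12, adjusted p = 0.00931). The difference between the 2 variants did not pass either (0.33 ± 0.12, adjusted p = 0.0671). The LTED-B call was lost without LTED-B replicate 1 or 3 (adjusted p of 0.00116 and 0.00110). In MM134 cells APOO was nearly level, at 14.3 to 16.3 CPM in parental cells and 14.7 to 18.0 CPM in the variants. LTED-E, at 17.5, 18.0 and 17.8 CPM, was 1.18-fold above parental cells, under the fold threshold (0.24 ± 0.05, adjusted p = 0.000833).

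APOOL, the paralogue of APOO in the same complex, was called in no comparison. Its libraries disagreed within groups. MM134 parental libraries held 24.7, 23.4 and 61.5 CPM, SUM44F held 44.5, 49.3 and 27.1 CPM, and SUM44 LTED-A held 45.3 and 27.0 CPM. All other libraries but MM134 LTED-E replicate 2 (44 CPM) lay between 22.0 and 36.4 CPM. The log2 fold changes in the 6 variants ran from -0.52 to -0.10. Without MM134 parental replicate 3 all 4 values of the MM134 variants turned positive, from 0.075 in LTED-B to 0.50 in LTED-E (lowest adjusted p = 0.0200).

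**Figure D5:**
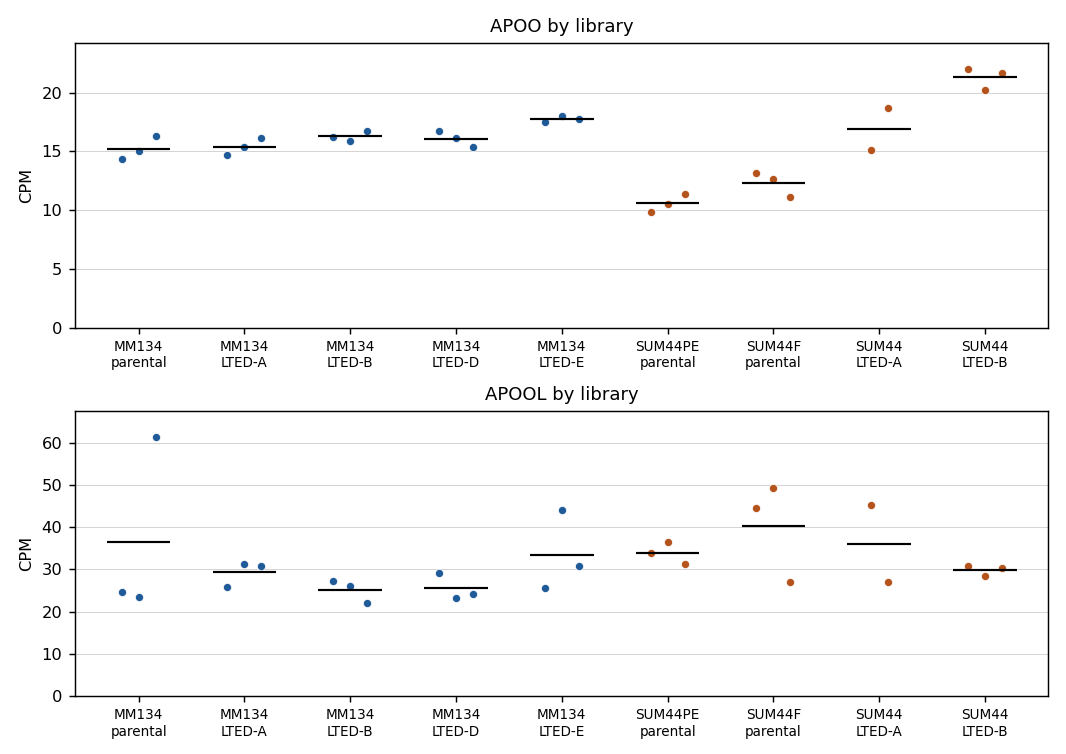
Levels of APOO (upper panel) and APOOL (lower panel) in CPM by library and group, MM134 in blue and SUM44 in orange, with bars at group means. APOO was highest in SUM44 LTED-B (20.2 to 22.0 CPM), whereas for APOOL single libraries of MM134 parental, MM134 LTED-E, SUM44F and SUM44 LTED-A lay far from the rest of their group.

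Other subunits and partners of MICOS were read beside this pair. Of 9 other genes of the complex and its partners, 3 rose in SUM44 LTED-B, against 17.3% of all genes called in either direction, with a median log2 fold change of 0.39 against -0.093 over all genes tested. These were CHCHD3 (0.71 ± 0.08), MICOS10 (0.65 ± 0.08) and MTX1 (0.60 ± 0.09). None of the 9 was called in SUM44 LTED-A, against 13.7% of all genes, and the median there was 0.32. In MM134 variants A, B, D and E 1, 0, 1 and 0 of the 9 rose, the called gene being MICOS13 at 0.59 ± 0.04 in both LTED-A and LTED-D. None fell in any variant. Among all genes tested, 20.3, 15.9, 17.6 and 19% were called in MM134 variants A, B, D and E.

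Among 15 other apolipoproteins, 8 could be tested in MM134 and 10 in SUM44. In MM134, 1 rose (0 without parental replicate 3) and 2 fell in LTED-A, 0 and 3 in LTED-B, 1 and 1 in LTED-D, and 1 and 2 in LTED-E. Shares of all genes called in these variants were 20.3, 15.9, 17.6 and 19%. APOLD1, an endothelial relative of the APOL family, fell in all 4 MM134 variants (-0.72 to -0.93) and rose in SUM44 LTED-A (1.43 ± 0.08, adjusted p = 2.51e-07). APOL1, a component of trypanolytic high-density lipoprotein, fell in MM134 LTED-B (-1.16 ± 0.09) and rose in LTED-D (1.18 ± 0.08) and LTED-E (0.62 ± 0.08). In SUM44 LTED-B 4 of 10 fell, with a median log2 fold change of -0.75, and none rose, against 17.3% of all genes called. APOL1 was at -1.68 ± 0.25 there (-1.29 without SUM44F replicate 1, still called) and APOL6 at -1.20 ± 0.14. In SUM44 LTED-A 1 of 10 was called, APOLD1, against 13.7% of all genes.

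Receptors of lipoproteins moved in both directions. Of 11 tested in MM134, 2 rose and 2 fell in LTED-A, 1 and 2 in LTED-B, 2 and 4 in LTED-D, and 2 and 3 in LTED-E. Of all genes tested, 20.3, 15.9, 17.6 and 19% were called in these variants. SORL1, a sorting receptor that binds APOE, fell in all 4 (-0.60 to -1.10). LRP2 (megalin), an endocytic receptor for CLU and APOM among others, fell in LTED-A (-1.19 ± 0.04), LTED-D (-1.18 ± 0.04) and LTED-E (-2.25 ± 0.04). In SUM44 4 of 11 rose and 1 fell in LTED-A, against 13.7% of all genes called, and 3 rose in LTED-B, against 17.3%. LRP2 rose there by 2.58 ± 0.09 and 3.04 ± 0.09 on the log2 scale, and LRP8, a receptor for APOE, by 1.43 ± 0.08 and 1.02 ± 0.08.

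Of 9 genes of lipidation and lipoprotein remodelling tested, 2, 1, 2 and 1 rose in MM134 variants A, B, D and E. A fall was called for 1 in LTED-E. These counts stand against 20.3, 15.9, 17.6 and 19% of all genes called. LIPA, the lysosomal acid lipase, rose in all 4 (1.05 to 2.16). ABCA1, the transporter that loads APOA1 with cholesterol, rose in LTED-A (1.56 ± 0.06) and LTED-D (1.54 ± 0.06) and fell in LTED-E (-3.85 ± 0.10). In SUM44, ABCA1 fell in LTED-A (-3.82 ± 0.61, and -2.91 without SUM44F replicate 1), and LCAT, the plasma enzyme that esterifies cholesterol, fell in LTED-B (-1.42 ± 0.20). Each was the only 1 of the 9 called there, against 13.7 and 17.3% of all genes. Of 10 sterol regulators and targets of the liver X receptor, 2, 1, 1 and 3 rose in the MM134 variants, and none fell. The shares of all genes called in variants A, B, D and E were 20.3, 15.9, 17.6 and 19%. In SUM44 2 rose and 1 fell in LTED-A, against 13.7% of all genes called. In LTED-B 2 rose and 2 fell (2 and 1 without SUM44F replicate 1), against 17.3%. SREBF1, a master regulator of lipogenic genes, rose in MM134 LTED-A, LTED-B and LTED-E (0.82 to 1.42) and in both SUM44 variants (0.88 ± 0.11 and 0.85 ± 0.10). MYLIP, a ubiquitin ligase induced by sterols, fell in both SUM44 variants (-1.20 ± 0.08 and -1.75 ± 0.07).

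Chaperones and lipocalins other than CLU, APOD and APOM were also read, namely LCN2, PTGDS, ORM1, RBP4, HSPA5 and A2M. In MM134 4 of 6 could be tested, and 3 rose in each of the 4 variants, while 1 fell in LTED-A, LTED-B and LTED-E. Calls were made for 20.3, 15.9, 17.6 and 19% of all genes tested in variants A, B, D and E. LCN2, an iron-carrier lipocalin, was at or under 2 counts in MM134 parental libraries and was at least 28.9-, 4.77-, 3.94- and 28.3-fold higher in variants A, B, D and E. ORM1, a plasma lipocalin, rose by 5.46 ± 0.18, 2.84 ± 0.23, 5.40 ± 0.18 and 5.17 ± 0.18 on the log2 scale. In SUM44 5 could be tested, of which 3 fell in LTED-A, and 2 fell and 1 rose in LTED-B. The shares of all genes called there were 13.7 and 17.3%. LCN2 was at 83.9 CPM in SUM44F and fell by 5.72 and 4.98 on the log2 scale, and A2M, a protease trap and chaperone of plasma, fell by 7.34 and 6.08. ORM1 was at 0 counts in SUM44 LTED-A, at least 19.9-fold lower than in SUM44F. For LCN2 and ORM1 the direction in MM134 LTED-A was opposite to that in SUM44 LTED-A, as it was for APOD and CLU. In MM134 LTED-E, LCN2, ORM1 and APOD were again higher than in parental cells, but CLU fell. In the test of the difference between the lines 3 of the 5 genes of this list were called, against 20.9% of all genes.

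The genes around APOE and APOC1 on chromosome 19 were compared with them. Of 6 tested in MM134, 1, 2, 1 and 2 fell in variants A, B, D and E and none rose. The shares of all genes called were 20.3, 15.9, 17.6 and 19%. BCAM, a laminin receptor, fell in all 4 (-0.68 to -2.20) and rose in SUM44 LTED-A (1.13 ± 0.09). In SUM44 1 of 6 rose in LTED-A, against 13.7% of all genes called, and 2 rose in LTED-B, against 17.3%. The 2 in LTED-B were TOMM40 (0.74 ± 0.08), a mitochondrial import pore, and NECTIN2 (0.69 ± 0.10). For CLU, APOD and APOO the 20 nearest tested genes of at least 5 CPM were read as well. Around CLU the median log2 fold change of these genes lay between 0.031 and 0.22 in the 6 variants, and around APOD between -0.051 and 0.15. Around APOO it was 0.33 in SUM44 LTED-B, beside the gene's own 0.79. Single neighbours varied widely. In MM134 LTED-A they ran from -0.66 to 3.66 around CLU and from -0.90 to 3.28 around APOD. In SUM44 LTED-A those around APOD ran from -4.53 to 1.81, and in SUM44 LTED-B those around APOO from -2.71 to 1.90.

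Genes with the most similar pattern were listed for each member by Pearson's r of the mean log2(CPM + 1) over the 9 groups, as a description. For CLU these were GPD1L (r = 0.934), SDHD (0.917) and XDH (0.912), and for APOD, SCN1A and RBL2 (both 0.992) and FAM20C (0.991). For APOO they were CYB5B (0.979), ZNF525 (0.974) and SMARCA5 (0.971), and for APOOL, BAP1 (0.974), RBM41 (0.931) and PDE4DIPP2 (0.914). For APOM they were CHST8 (0.947), FAM193B and TLCD5 (both 0.927), for APOC1, CCDC50 (0.933), C17orf75 (0.929) and MED12L (0.927), and for APOA1, DENND1B (0.909), NUB1 (0.895) and CLUAP1 (0.892). For APOB they were PCSK5 (0.978), ADA2 (0.976) and DNAJC15 (0.975). The APOE pattern was most like those of COL6A3 (0.982), MMP14 (0.975) and SPP1 (0.973), which encode a collagen, a matrix metalloprotease and osteopontin. Without SUM44F replicate 1 these 3 correlations were 0.708, 0.812 and 0.632. For APOD the 99th percentile of r over the 13271 genes compared was already 0.976. By Spearman's rank correlation SCN1A ranked 230th, RBL2 179th and FAM20C 10th for APOD. For APOB, PCSK5 ranked 74th, ADA2 562nd and DNAJC15 816th, whereas BAP1 ranked 1st for APOOL. The 9 points share libraries and fall into 2 cell lines, and members at few counts carry large counting error.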

How the data were processed

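RNA was sequenced on an Illumina HiSeq instrument, and the authors deposited estimated counts per gene from Salmon 0.6.0, run with default settings on hg38 with Ensembl 82. Those estimated counts were rounded to whole numbers here. Gene IDs were matched to GENCODE 44 symbols for 56434 of 60619 genes. All 27 columns were mapped to samples by name. Genes were kept by filterByExpr, scaled by TMM and tested with edgeR 4.0.16 (R 4.3.3; DESeq2 1.42.0 as an alternative) in fits of MM134, of SUM44, of SUM44 with SUM44PE and of both lines, with 26061, 26834, 27457 and 29200 genes, and the scripts were tested on simulated data. The study itself used DESeq2. Depth limits genes with few counts, and 3 counts per library was taken as the detection limit. The SE values include the estimated spread between replicate libraries, whereas the at-least folds rest on the detection limit alone. The members, context lists and markers were chosen with earlier results of these data known. All members were named, as were, per context list and line, up to 3 genes called in the most variants, and the 3 genes closest in pattern among those with at least 5 CPM in some group. Alternatives were RLE size factors, DESeq2, no filter, thinned counts, 1 fit of all 9 groups, the replicate block, separate near-identical libraries and each library left out.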

Additional observations from a re-analysis of the deposited data

Results flagged for a closer look

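The LTED change differed between the cell lines for APOD and CLU. For APOD the mean log2 fold change over the 4 MM134 variants exceeded that over the 2 SUM44 variants by 4.03 ± 0.33 (edgeR's quasi-likelihood test, adjusted p = 5.80e-10), and APOD was higher in all 12 MM134 LTED libraries than in the parental ones and lower in every SUM44 LTED library than in SUM44F. The APOD counts behind the MM134 side are small, at 5 to 12 per parental library. For CLU the difference was 2.98 ± 0.09 (adjusted p = 2.46e-17), with higher levels than in parental cells in 9 of 12 MM134 LTED libraries and lower levels in every SUM44 LTED library.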

How the results depend on the processing

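The log2 fold changes of the members were recomputed under each alternative in which the gene passed the filter: 1810 values kept direction and side of the threshold, 23 lost a call, 12 gained one and 31 changed sign. RLE size factors and DESeq2 altered no call. No filter on low counts gave 3 called members between SUM44PE and SUM44F in place of 1 (APOE and APOA1 added), and also called APOD in MM134 LTED-B (adjusted p = 0.000881) and APOC1 between the parental lines (0.000331), by edgeR. 1 fit of all 9 groups gave 2 between SUM44PE and SUM44F (APOA1 added), and lost APOD in MM134 LTED-D (adjusted p = 0.00883) and APOC1 in MM134 LTED-A (0.00915) and among the 4 variants (0.00582). Thinned counts gave 2 in place of 4 in MM134 LTED-A, where APOC1 and APOA1 missed the threshold, and -0.034 for APOO. That single fit called 3170 genes between SUM44 LTED-B and LTED-A in place of 1990, and 1104 to 2084 were called there with 1 library left out.

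The replicate numbers of the labels did not pair the samples (median correlation of same-numbered deviations -0.0118 in MM134, with -0.113 to 0.0805, and 0.0558 in SUM44, with -0.0706 to 0.188). With the replicate block the count of called members was unchanged in all 11 comparisons, and 1 value changed sign, that of APOOL for the difference between the lines (0.014).

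With 1 library left out at a time, called members numbered 2 to 5 in MM134 LTED-A, 1 to 3 in LTED-D and 0 to 1 between SUM44PE and SUM44F. Signs turned for values that were not called. APOOL ran from -0.56 to 0.28, -0.76 to 0.075, -0.74 to 0.097 and -0.34 to 0.50 in MM134 variants A, B, D and E, from -0.53 to 0.18 in SUM44 LTED-A (0.021 without SUM44F replicate 2), from -0.29 to 0.13 between the SUM44 variants (-0.59 without LTED-A replicates 2 and 3), from -0.75 to 0.096 between parental lines and from -0.31 to 0.53 for the difference between the lines. APOE ran from -0.42 to 0.022 in MM134 LTED-D, -0.31 to 0.11 in LTED-E, -2.99 to 0.20 in SUM44 LTED-B, -2.94 to 0.23 in SUM44PE, -2.27 to 0.93 between parental lines and -0.35 to 2.87 for the difference. APOC1 ran from -0.39 to 1.15 in SUM44 LTED-B and from -1.31 to 0.62 in SUM44PE. APOO ran from -0.032 to 0.062 in MM134 LTED-A, and APOD from -0.019 to 0.18 and APOM from -0.32 to 0.0047 between the SUM44 variants. Apart from the replicates named, the cause was not tested. APOA1, APOB, APOC1 and APOH had at most 62 counts in a library and are limited by depth.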
